A study of Mus musculus with 15 samples.

Results

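Occupancy by Polycomb repressive complex 1 (PRC1) was examined at 6 genes of the Pax family, Pax1, Pax2, Pax3, Pax6, Pax7 and Pax9, in mouse cells before and after commitment to mesoderm. The genes were represented by 6 fixed windows of the mm9 genome, and every peak that overlapped a window by at least 1 bp was taken. The windows ran over 147.16 to 147.24 Mb of chromosome 2 for Pax1, 44.8 to 44.93 Mb of chromosome 19 for Pax2 and 78.08 to 78.23 Mb of chromosome 1 for Pax3. They ran over 105.48 to 105.56 Mb of chromosome 2 for Pax6, 139.27 to 139.41 Mb of chromosome 4 for Pax7 and 57.76 to 57.84 Mb of chromosome 12 for Pax9. They held 116 of the 30692 peaks of all lists, made up of 12 of 3679 Cbx2 peaks, 21 of 8641 Ring1b peaks, 34 of 7614 RYBP peaks, 18 of 4165 MES Mel18 peaks and 31 of 6593 ESC Mel18 peaks.

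The peaks came from 5 ChIP-seq samples of the series of 15. Cbx2, Ring1b, RYBP and Mel18 had been mapped in early cardiac mesoderm precursors (MES), which had been derived with BMP4 from the embryonic stem cell line E14Tg2A, and Mel18 had also been mapped in the undifferentiated E14Tg2A cells (ESCs) in 2i medium with LIF. The Mel18 antibody was the same in both states, and no genotype change was given for these ChIP samples. With peak lists alone, the labelled cell types could not be checked against expression of their markers. All of them came from 1 line, each list belonged to 1 sample, and whether that sample pooled cultures was not given. Differences between lists therefore had no replicate check, no test between lists was possible, and read depth was unknown.

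Pax proteins are transcription factors that bind DNA through a paired domain and pattern the embryo. Pax1 and Pax9 mark the sclerotome, the part of the somite that forms vertebrae,. Pax3 and Pax7 act in the muscle-forming part of the somite and also in the dorsal neural tube, and Pax2 acts in the kidney-forming intermediate mesoderm and also at the border of midbrain and hindbrain. Pax6 acts in the eye, the forebrain and the ventral neural tube, with a further role in the pancreas. Polycomb complexes keep such regulators silent in cells that do not use them. In PRC1, Ring1b ubiquitinates histone H2A. Mel18 (Pcgf2) is a PCGF partner of Ring1b. Cbx2 brings a chromodomain to canonical PRC1, and RYBP marks variant PRC1.

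In mammals, PRC1 is found mostly at starts of genes that are rich in the dinucleotide CG, so the start sequences of mesodermal and neural members are shown here. They run from 250 bases before to 50 bases after the start, come from RefSeq on GRCm38.p6, and were not placed on the mm9 peaks. CG is in capitals.
Pax1 chr2:147364744-147365043, plus strand: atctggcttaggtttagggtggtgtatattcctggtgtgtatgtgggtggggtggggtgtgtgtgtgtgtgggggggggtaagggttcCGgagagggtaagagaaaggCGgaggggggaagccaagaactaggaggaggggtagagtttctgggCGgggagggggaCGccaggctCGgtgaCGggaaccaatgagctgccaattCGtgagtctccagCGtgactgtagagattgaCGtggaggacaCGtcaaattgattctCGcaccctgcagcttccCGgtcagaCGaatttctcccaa
Pax9 chr12:56695221-56695520, plus strand: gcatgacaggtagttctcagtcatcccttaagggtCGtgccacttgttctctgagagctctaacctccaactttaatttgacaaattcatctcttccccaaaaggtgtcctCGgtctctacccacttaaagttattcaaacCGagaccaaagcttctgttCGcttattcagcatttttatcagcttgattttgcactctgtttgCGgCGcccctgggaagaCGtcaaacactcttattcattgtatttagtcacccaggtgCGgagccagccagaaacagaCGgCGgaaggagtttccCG
Pax6, first of the listed starts, chr2:105668646-105668945, plus strand: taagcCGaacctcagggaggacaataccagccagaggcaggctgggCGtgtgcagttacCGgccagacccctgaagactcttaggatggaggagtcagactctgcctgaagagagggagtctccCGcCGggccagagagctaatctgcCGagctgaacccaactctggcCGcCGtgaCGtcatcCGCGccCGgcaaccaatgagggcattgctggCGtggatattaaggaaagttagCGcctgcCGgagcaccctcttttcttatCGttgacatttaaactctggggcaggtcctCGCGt
The table gave 8 starts for 5 of the genes. In these 300 bases the Pax1 start held 13 CG and the Pax9 start 11, whereas the Pax6 starts held 18 and 16. The Pax7 start held 17, and the 3 starts of Pax2 held 7, 23 and 30. Over all 32851 starts of the table the median was 7, and 94.6% held at least 1 CG. The mesodermal starts shown thus held fewer CG than the neural ones and more than the median start. CG reads the same on both strands and was counted without overlap.

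Each Pax window held peaks of all 5 lists, and in each most of the covered length lay on 1 long block, with further separate sites at every gene but Pax6. In MES, Cbx2, Ring1b and Mel18 each covered the block nearly throughout, although their widest peaks differed in length at Pax2 and Pax3. ESC Mel18 lay mostly under MES Mel18, and RYBP formed several short peaks. The 6 windows together were covered over 176 kb by Cbx2, 159 kb by Ring1b, 99.3 kb by RYBP and 171 kb by Mel18 in MES, and over 125 kb by Mel18 in ESCs. The order of these lengths was the same in every window from the third place on, with Ring1b longer than ESC Mel18 and ESC Mel18 longer than RYBP. Cbx2 was the longest at Pax2, Pax6 and Pax7, and MES Mel18 was the longest at Pax1, Pax3 and Pax9.

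**Figure D1:**
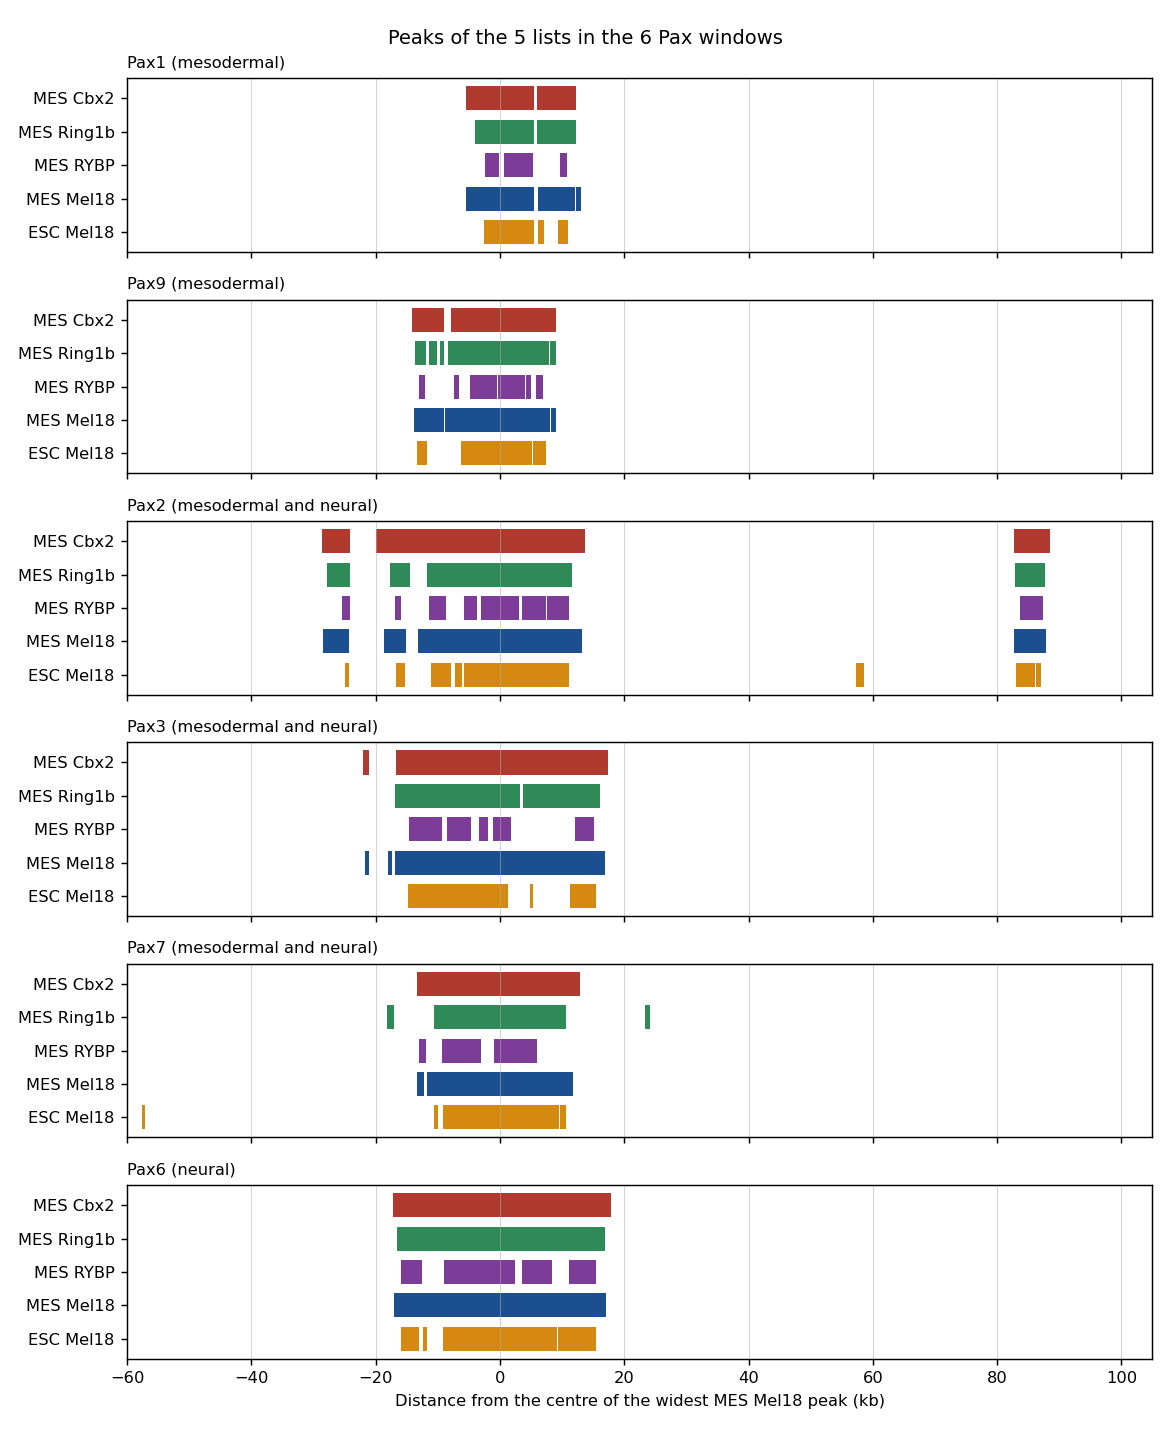
Peaks of each list in the 6 windows, drawn as bars along the distance in kb from the centre of the widest MES Mel18 peak, with Cbx2, Ring1b, RYBP and Mel18 of MES above Mel18 of ESCs. Cbx2, Ring1b and MES Mel18 form near-continuous blocks, whereas RYBP and most ESC Mel18 tracks are broken into several peaks.

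The Pax peaks stood high in their lists in width. Peaks of 10 kb or more made up 6 of the 12 Cbx2 peaks, 5 of the 21 Ring1b peaks, 0 of the 34 RYBP peaks and 6 of the 18 Mel18 peaks in MES, and 4 of the 31 Mel18 peaks in ESCs. Over the whole lists such peaks made up 5.65% of Cbx2, 1.69% of Ring1b, 0.144% of RYBP and 4.11% of MES Mel18 peaks, and 0.713% of ESC Mel18 peaks. The count of 0 RYBP peaks allows a share of up to 10.3% (exact Clopper-Pearson 95% interval, counting error only). Every window held at least 1 peak at the score of 3100, where values pile up, in the Cbx2, Ring1b and both Mel18 lists. In all, 7 Cbx2 peaks, 8 Ring1b peaks and 7 Mel18 peaks of MES, and 6 Mel18 peaks of ESCs, stood at that score, against 8.83, 3.29 and 8.64% of the MES lists and 4.38% of the ESC list. The score is the authors' own value on an unknown scale, and it is used here only within a list.

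**Figure D2:**
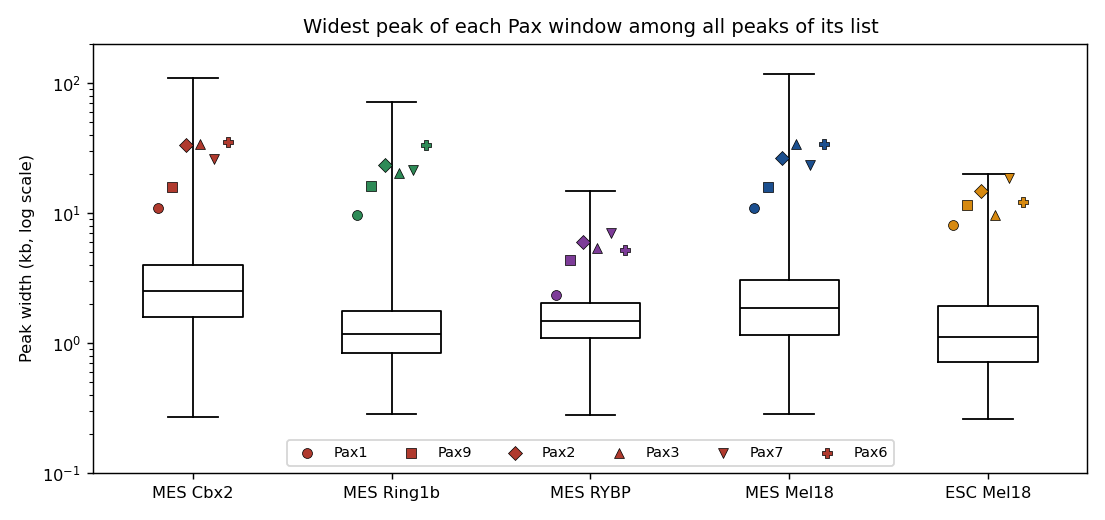
Width in kb, on a log axis, of the widest peak in each Pax window (symbols) beside all peaks of the same list (box, quartiles; whiskers, lowest and highest). The 6 Pax peaks lie above the upper quartile in every list, and the Pax1 RYBP peak of 2.35 kb lies closest to it.

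In MES, Pax1 and Pax9 carried the shortest Cbx2, Ring1b and Mel18 blocks of the 6 windows. Pax1 is a sclerotome factor of the vertebral column. At Pax1 the widest peaks were a Cbx2 peak of 10.9 kb (chr2:147183716-147194620), a Ring1b peak of 9.61 kb (chr2:147185011-147194620) and a Mel18 peak of 11.01 kb in MES (chr2:147183609-147194618), and a Mel18 peak of 8.12 kb in ESCs (chr2:147186503-147194618). A second block to the right stood at 3100 in MES in each of Cbx2, Ring1b and Mel18, where its Mel18 peak spanned 6.07 kb (chr2:147195153-147201220). In ESCs the same stretch held Mel18 peaks of 1.02 and 1.69 kb with scores of 455 and 580. The right-hand block was therefore a single wide MES peak over a stretch with a pair of narrower ESC peaks.

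RYBP stood apart at Pax1. Its 4 peaks there had scores of 116 to 139.1 and widths of 1.25 to 2.35 kb (widest chr2:147189708-147192052, highest score chr2:147186639-147188899). The highest of them scored above 55.6% of all RYBP peaks. At the other genes the highest RYBP peak scored above 93.4% (Pax9), 96.8% (Pax3), 99.2% (Pax6), 99.3% (Pax2) and 99.96% (Pax7) of the list. Pax1 thus had the lowest-ranked top RYBP peak of the 6 genes, while the widest Cbx2, Ring1b and Mel18 peaks there stood at the score where those lists pile up. The lowest-scoring RYBP peaks of the other genes, at 62.8 to 87.4, were below all of those at Pax1, whose RYBP scores spanned the narrowest range.

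The blocks at Pax1 ended almost at the same base in 4 lists. The peaks ended at 147194620 in Cbx2 and Ring1b and at 147194618 in Mel18 of MES and ESCs, and the next 417 bases (chr2:147194621-147195037) lay under no peak of any list. Ends of Cbx2, Ring1b and ESC Mel18 peaks within 10 bp of a MES Mel18 end were found for 3 of 4165 MES Mel18 peaks, or 0.0720%. Of the Pax edges, only this one was shared to that degree by 3 or more lists. What sets it was not tested.

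Pax9, which acts in the sclerotome and in teeth and palate, had a Cbx2 peak of 15.975 kb (chr12:57787041-57803015), a Ring1b peak of 16.2 kb (chr12:57786615-57802817) and a Mel18 peak of 15.974 kb in MES (chr12:57786971-57802944). The ESC Mel18 peak there spanned 11.5 kb (chr12:57788602-57800148). RYBP had 6 peaks at Pax9, the widest of 4.34 kb (chr12:57790085-57794427) and the highest-scoring at 510 (chr12:57794664-57798987). A second site to the left held a Cbx2 peak of 5.09 kb and a Mel18 peak of 4.84 kb in MES, and a Mel18 peak of 1.66 kb in ESCs. The left-hand site was covered over more length in MES than in ESCs, as the main block was.

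Pax2, a kidney and midbrain-hindbrain factor, had several separate sites over the widest stretch. Its main block was a Cbx2 peak of 33.7 kb (chr19:44805624-44839305), a Ring1b peak of 23.4 kb (chr19:44813796-44837227) and a Mel18 peak of 26.5 kb in MES (chr19:44812379-44838840), and a Mel18 peak of 14.8 kb in ESCs (chr19:44821936-44836731). The Cbx2 peak reached 6755 bp further left than the Mel18 peak of MES and joined a site that the Mel18 list kept separate. RYBP had 8 peaks, the widest of 6.03 kb (chr19:44822567-44828595) and the highest-scoring at 1140 (chr19:44829164-44832961). On the right, all 5 lists had peaks again at a distant site, where Cbx2 spanned 5.87 kb (chr19:44908273-44914137).

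Pax3 and Pax7 are close relatives with like roles in somite and dorsal neural tube, and their blocks differed in how far MES Mel18 exceeded ESC Mel18. At Pax3 the widest peaks were a Cbx2 peak of 34.0 kb (chr1:78183430-78217429), a Ring1b peak of 20.2 kb (chr1:78183144-78203327) and a Mel18 peak of 33.9 kb in MES (chr1:78183148-78217071). That MES Mel18 peak overlapped 5 ESC Mel18 peaks, the widest of 9.69 kb (chr1:78185258-78194942), and ranked 6th in width of its list. Inside it, 5.84 kb (chr1:78205496-78211330) were free of ESC Mel18 and 10.4 kb (chr1:78201822-78212235) were free of RYBP. The stretch without RYBP was the longest inside any of the 6 blocks. RYBP peaks lay on both sides of it, the widest of 5.39 kb (chr1:78185386-78190773) on the left and the highest-scoring at 678 (chr1:78212236-78215210) on the right.

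At Pax7 the block was a Cbx2 peak of 26.2 kb (chr4:139371265-139397493), a Ring1b peak of 21.3 kb (chr4:139374062-139395347) and a Mel18 peak of 23.5 kb in MES (chr4:139372923-139396408). Its ESC Mel18 peak of 18.7 kb (chr4:139375471-139394212) was the second widest of the 6593 ESC Mel18 peaks. The Pax7 RYBP peak of 7.02 kb (chr4:139383619-139390643) had the third-highest score of the RYBP list, 1783. By width, that RYBP peak ranked 41st and the MES Mel18 peak of the block 23rd in their lists. The right-hand 5.77 kb of the Pax7 block (chr4:139390644-139396408) carried no RYBP peak.

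Pax6, the neural member, was the only window in which Cbx2, Ring1b and MES Mel18 each formed a single peak. The Cbx2 peak spanned 35.1 kb (chr2:105498342-105533435), the Ring1b peak 33.5 kb (chr2:105498940-105532427) and the MES Mel18 peak 34.2 kb (chr2:105498414-105532608). The MES Mel18 and Ring1b peaks were each the 4th widest of their lists. In ESCs the same stretch was split into 7 Mel18 peaks, the widest of 12.2 kb (chr2:105506308-105518505). RYBP had 6 peaks there, the widest of 5.24 kb (chr2:105506557-105511792) and the highest-scoring at 1095 (chr2:105512989-105517937). The block at Pax6 was thus among the widest PRC1 blocks of MES, while Pax6 is a gene of neural and eye tissue.

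The Mel18 lists address how binding at these genes changed on commitment to mesoderm. Mel18 was kept at nearly every site bound in ESCs and covered more length in MES at all 6 genes. Of the Mel18 peaks of the windows, 12 of 18 MES peaks (66.7%, exact Clopper-Pearson 95% interval 41.0 to 86.7) overlapped an ESC peak, and 29 of 31 ESC peaks (93.5%, interval 78.6 to 99.2) overlapped a MES peak. Over the whole lists the shares were 66.3% and 52.6%. The MES share at the Pax genes was near that of the list, and the ESC share was above it. These intervals cover counting only, and peaks of 1 block are not independent.

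By length, 98.4% of the bases under ESC Mel18 peaks in the windows lay under MES Mel18 peaks, against 67.6% over the whole lists. In the 166 merged regions of the series that held a MES Mel18 peak of 10 kb or more, 99.8% did so. In the 6 such regions at Pax genes the share was 100%. These regions were picked by the width of MES Mel18, which by itself favours a high share. The 98.4% of the windows also counts sites away from the wide blocks. By window, the share was 100% at Pax1, Pax3, Pax6 and Pax9, 94.6% at Pax2 and 97.7% at Pax7. The sites found in ESCs alone were a peak of 1316 bp at Pax2 (chr19:44882886-44884201, score 129) and one of 485 bp at Pax7 (chr4:139327020-139327504, score 56.9). Neither overlapped a peak of any MES list. Whether ESC bases were retained more often at Pax genes than at other sites was not tested.

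The 6 MES Mel18 peaks with no ESC Mel18 peak were narrow, at 671 to 1179 bp, with scores of 50.4 to 154, whereas the 12 on ESC peaks scored 666 to 3100. The ranges did not overlap. The highest-scoring of the 6 lay at Pax9 (chr12:57803085-57803893, score 154) and at Pax3 (chr1:78178309-78179099, score 73.9). Cbx2 was present at 3 of the 6, Ring1b at 3 and RYBP at 1, and all 3 subunits were present at each of the other 12. New Mel18 length at the Pax genes thus lay mostly in widened peaks and only to a small part in new ones. Over the whole list, Cbx2 was at 73.3%, Ring1b at 81.2% and RYBP at 72.4% of MES Mel18 peaks, without a split by ESC overlap. Whether MES-only peaks elsewhere were as narrow, weak and poor in subunits was not tested.

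The length under MES Mel18 peaks was 1.37 times that under ESC Mel18 peaks over the 6 windows, at 171 kb in MES and 125 kb in ESCs. The MES length was the greater in 6 of 6 windows. In all 2540 merged regions with Mel18 in both states it was the greater in 74.9%, with a median ratio of 1.24 (quartiles 0.999 and 1.61). At Pax3 the ratio was 1.70, with 35.4 kb in MES and 20.8 kb in ESCs. At Pax1 it was 1.65, with 17.8 kb in MES and 10.8 kb in ESCs, and at Pax9 1.45, with 22.4 kb in MES and 15.4 kb in ESCs. Pax3 is a somite and neural tube gene, and Pax1 and Pax9 are sclerotome genes.

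The other members had smaller ratios. Pax2 had 1.27, with 36.2 kb in MES and 28.5 kb in ESCs. Pax6 had 1.22, with 34.2 kb in MES and 28.045 kb in ESCs, and Pax7 had 1.18, with 24.7 kb in MES and 20.9 kb in ESCs. With 1 library per state, neighbours in this order could not be told apart by any replicate spread. Over the whole lists, the length under MES Mel18 peaks was 1.11 times that under ESC Mel18 peaks, and all 6 Pax windows had a ratio above that value. That total also counts sites bound in 1 state only. The median of 1.24 over the 2540 merged regions with Mel18 in both states was above the ratios of Pax6 and Pax7. Merged regions that held a MES Mel18 peak of 10 kb or more had a ratio of 1.46. The 6 of them at Pax genes had 1.33, so the Pax value was not above that of wide blocks as a whole.

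**Figure D3:**
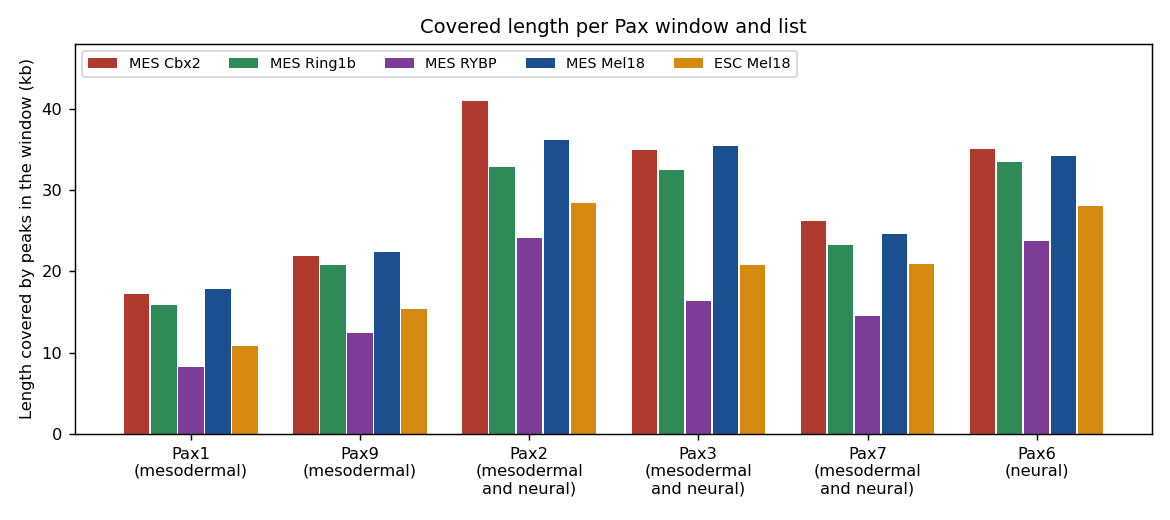
Length in kb covered by the peaks of each list in each Pax window (bars, 1 sample per list, no error), with the mesodermal genes on the left and the neural gene on the right. MES Mel18 exceeds ESC Mel18 in every window, and RYBP is the shortest in every window.

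Mesodermal and neural members differed in this ratio, and the members with roles in both tissues spanned the whole range. The mesodermal genes Pax1 and Pax9 together had a ratio of 1.53, with 40.2 kb in MES and 26.2 kb in ESCs, and the neural gene Pax6 had 1.22. Pax2, Pax3 and Pax7, which act in both tissues, had 1.37 together, with 96.3 kb in MES and 70.2 kb in ESCs. Within them Pax3, at 1.70, stood above both mesodermal genes and Pax7, at 1.18, stood below the neural gene. With 2 genes in the mesodermal class, 1 in the neural class and 1 library per state, the classes could not be tested against each other. In absolute length, the mesodermal genes added 6.999 kb (Pax1) and 7.01 kb (Pax9), and Pax6 added 6.15 kb. The classes were thus closer in length added than in ratio, since the neural block was the longer one in ESCs.

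The new Mel18 length lay both inside and outside the span of the ESC peaks of a window. Of 48.2 kb under MES Mel18 and not under ESC Mel18, 31.1 kb lay between the first and the last ESC peak of a window and 17.2 kb lay outside that span. At Pax3, 9.52 kb lay between ESC peaks and 5.05 kb outside. Pax1 was the only member with more outside, at 4.77 kb, than between, at 2.23 kb. For the other members the part inside the span was 7.79 kb at Pax2, 5.13 kb at Pax9, 3.25 kb at Pax6 and 3.14 kb at Pax7. The part inside the span was therefore the larger one at 5 of the 6 genes. Where ESC peaks lay off the main block, the span also took in growth at the edge of that block. Such growth made up 1.16 kb at the left edge of the Pax7 block and 1.63 kb at that of Pax9. At Pax2 both edges of the block lay inside the span, and ESC Mel18 fell short of MES Mel18 there on the left (-2080 bp) and on the right (-2109 bp). The part inside the span is therefore not a measure of filling between neighbouring ESC peaks.

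Which other subunits accompanied Mel18 in MES was read from the 4 MES lists. At the Pax genes, all Cbx2 peaks (12 of 12) and all RYBP peaks (34 of 34) overlapped MES Mel18, as did 19 of 21 Ring1b peaks. Over the whole lists, 74.1% of Cbx2, 45.9% of RYBP and 42.4% of Ring1b peaks did so. The Ring1b peaks without Mel18 both lay at Pax7 (chr4:139366471-139367564 and chr4:139407974-139408881), with scores of 58.9 and 57.5, near the lowest score of the list. Read from Mel18, 15 of 18 peaks overlapped Cbx2 (83.3%), 15 overlapped Ring1b (83.3%) and 13 overlapped RYBP (72.2%), against 73.3, 81.2 and 72.4% of the list. All 3 were at 12 of 18 (66.7%, interval 41.0 to 86.7), against 57.7%, and none at 1, against 10.5%. The list shares lay inside the intervals of the Pax shares read from Mel18, and inside that of Cbx2 peaks on Mel18 (73.5 to 100). They lay below the intervals of RYBP peaks (89.7 to 100) and Ring1b peaks (69.6 to 98.8) on Mel18. These intervals cover counting only, and several of the peaks can lie under 1 wide Mel18 peak, so they are not independent. No difference from the list can be read from them.

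Relative to the MES Mel18 length, Cbx2 covered 1.03 times, Ring1b 0.931 times and RYBP 0.582 times as much over the 6 windows. For Cbx2 the ratio ran only from 0.966 at Pax1 to 1.13 at Pax2, and for Ring1b from 0.890 at Pax1 to 0.979 at Pax6. RYBP varied more, at 0.693 at Pax6, 0.666 at Pax2, 0.588 at Pax7, 0.552 at Pax9, 0.464 at Pax3 and 0.459 at Pax1. The mesodermal genes together had a RYBP ratio of 0.511 and the neural gene had 0.693. Pax3 again stood beside the mesodermal genes. Inside the widest MES Mel18 peak alone, RYBP covered 48.4% at Pax3 and 56.8% at Pax7, and 63.0% at Pax1, 68.5% at Pax2, 69.3% at Pax6 and 71.4% at Pax9. There the mesodermal and neural genes no longer stood in that order. The 171 MES Mel18 peaks of 10 kb or more had a median of 57.9% under RYBP (quartiles 48.2 and 69.4), so the Pax blocks lay within the usual range or just beyond its quartiles.

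The subunits differed most where Mel18 was found in MES alone. Of the 48.2 kb under MES Mel18 and not under ESC Mel18, 94.3% lay under Cbx2, 69.1% under Ring1b and 8.60% under RYBP. Of the 122 kb under Mel18 in both states, 100% lay under Cbx2, 99.9% under Ring1b and 77.2% under RYBP. Bases with Mel18 in MES alone thus carried Cbx2 nearly throughout and RYBP rarely. The share under RYBP on MES-only bases depended on the peaks taken, at 3.23% with the upper 50% of each list by score.

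Across the genes, the RYBP share of MES-only bases was 0% at Pax1, 2.99% at Pax3, 7.67% at Pax6, 10.2% at Pax9, 15.7% at Pax2 and 25.2% at Pax7. The RYBP share of bases bound in both states was 64.3% at Pax7 and between 75.6 and 83.0% at the other 5. The ranges of the 6 genes did not overlap. Ring1b varied on MES-only bases, from 20.1% at Pax7 and 54.8% at Pax2 to 69.7% at Pax1, 77.5% at Pax9, 80.0% at Pax3 and 88.5% at Pax6. Cbx2 there ran from 87.6% at Pax9 to 100% at Pax2 and Pax6. Pax7 had the least Ring1b on its 4.23 kb of MES-only bases. Its RYBP share rested mostly on 1 MES Mel18 peak with a score of 53.4 under a RYBP peak with a score of 79.5. Without the 6 MES Mel18 peaks that overlapped no ESC Mel18 peak, the RYBP share was 6.76% at Pax7, below 13.3% at Pax9 and 15.7% at Pax2, and the Ring1b share at Pax7 was 27.8%, still the lowest of the 6.

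**Figure D4:**
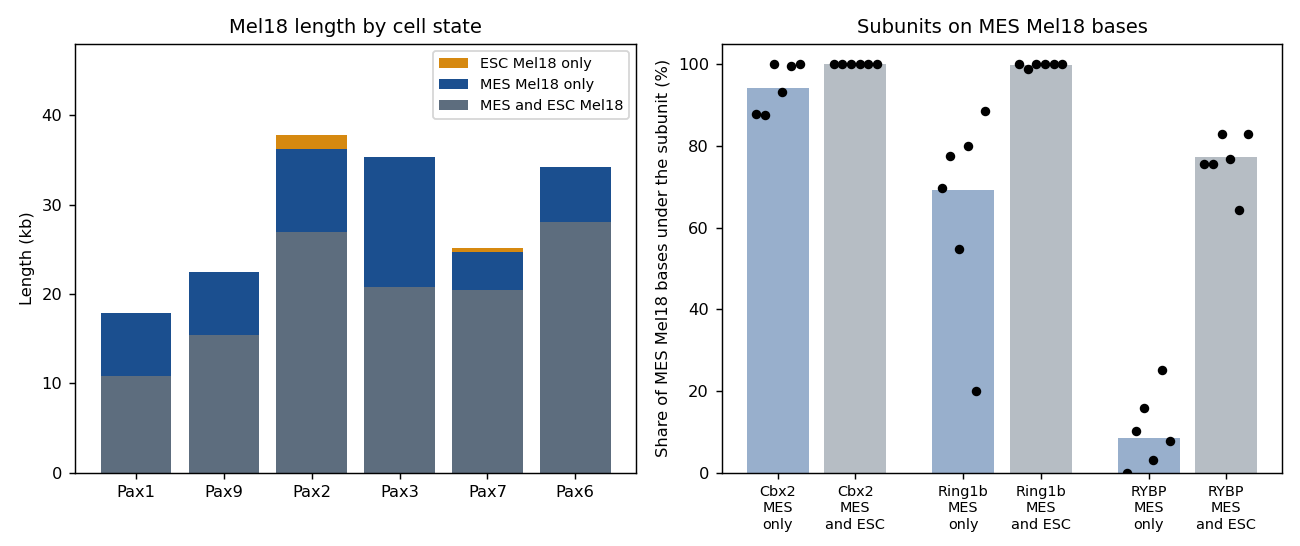
Left, length in kb under Mel18 in MES only, in both states and in ESCs only, stacked for each Pax window. Right, share in percent of the MES-only bases and of the bases bound in both states that lay under Cbx2, Ring1b and RYBP in MES, with bars for the 6 windows together and points for Pax1, Pax9, Pax2, Pax3, Pax7 and Pax6 from left to right. RYBP covers 8.60% of the MES-only bases and 77.2% of those bound in both states.

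The same contrast held over the whole lists with a smaller gap. There, RYBP covered 27.0% of MES-only bases and 74.7% of bases bound in both states, Ring1b covered 58.3 and 93.0%, and Cbx2 74.0 and 91.5%. Inside the 171 MES Mel18 peaks of 10 kb or more, RYBP covered 13.3% of MES-only bases and 75.8% of the others. Inside the 6 such peaks at Pax genes, RYBP covered 6.51% of MES-only bases and 78.1% of the others. Ring1b covered 72.7% of MES-only bases inside those 6 and 81.8% inside the 171. RYBP thus covered less of the MES-only bases than of the others in each of these sets, and differences between the sets could not be tested with 1 sample per list. Cbx2, Ring1b and RYBP in ESCs were not analysed here.

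The outer edges of the blocks were nested in most cases. The edges of a list were taken from its peaks that overlapped the widest MES Mel18 peak. Among the 12 outer edges so defined, Ring1b reached further out than RYBP at 12 and further than ESC Mel18 at 12. MES Mel18 reached further than ESC Mel18 at 11, the exception being the shared right edge at Pax1. Cbx2 reached further than MES Mel18 at 9, and its left edge lay inside that of MES Mel18 at Pax1 (-107 bp), Pax3 (-282 bp) and Pax9 (-70 bp). MES Mel18 reached further than Ring1b at 9, and ESC Mel18 further than RYBP at 9. Taken pair by pair, the more frequent order from outside in was thus Cbx2, MES Mel18, Ring1b, ESC Mel18 and RYBP. Some counted edges differed by a few bases only. At the right edge of Pax1, Cbx2 and Ring1b passed both Mel18 lists by 2 bp. The same counts were not made at other wide blocks, so this order cannot be called particular to Pax genes. With every peak on the merged region counted, Ring1b reached further than RYBP at 11 edges, Cbx2 further than MES Mel18 at 8 and ESC Mel18 further than RYBP at 8, and the other counts were equal. The changes in count came from the left edge at Pax7, where a RYBP peak (chr4:139371567-139372726, score 79.5) and a MES Mel18 peak (chr4:139371248-139372426, score 53.4) lay outside the Ring1b block. At Pax9, MES Mel18 and Ring1b changed order at both edges. MES Mel18 became the outer one on the left and Ring1b on the right, so their count stayed equal. How far a called edge reaches also depends on depth and calling, whose part in this order was not tested.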

How the data were processed

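Peak lists of 5 ChIP-seq samples were used, 1 sample per list. Reads were placed on mm9, with Bowtie and TopHat named without versions, per the submitters' processing notes. Peak names carry the tag of the MACS caller, per the file headers and names, whereas its settings, its control and any pooling are not given in the sources used here. Each deposited peak had 1 score from the authors, of unstated scale, which started at 50 and piled up at 3100 in 4 lists. Chromatin had been precipitated with 5 ug of antibody, and MES made with BMP4, typically at 0.1 to 0.3 ng/ml, per the labels' protocols.

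Starts were counted from 1. Peaks counted whole if they overlapped a window or another peak by 1 bp. Covered lengths were clipped to the window. Merged regions joined overlapping peaks of all lists. For each window and list the widest and the highest-scoring peak were to be named, with ESC-only peaks and the 2 highest-scoring MES-only peaks of Mel18, and the left-hand Pax9 site, the right-hand Pax1 block, the distant Pax2 site, the left-hand Pax7 peaks and the Ring1b peaks without Mel18 were named after their values were seen. Tissue classes came from textbook expression. Genes, windows and classes were chosen with earlier results of these data known. No mm9 annotation was used, so no peak was placed on an exon or a start, and a window can hold other genes. In RefSeq (GRCm38.p6) all 6 genes lie on the chromosomes of their windows, and Pax1 lies between Nkx2-2 and Foxa2. Pax4, Pax5 and Pax8 and the IgG and RNA-seq samples were not analysed here.

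Values were computed with pandas 2.3.3 and numpy 2.4.6 under Python 3.11.15, intervals with scipy 1.17.1 and figures with matplotlib 3.10.9. Tested on simulated data, the interval code differed from a base-by-base count in 0 of 1000 comparisons, and it differed from bedtools 2.31.1 in 0 of 20 pairs of lists. Alternatives were an overlap of 50% of the shorter peak, lists of 3679 peaks, the upper 50% of each list by score, peaks within 1 kb joined, windows widened by 20 kb, and other tissue classes.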

Additional observations from a re-analysis of the deposited data

How the results depend on the processing

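No paired analysis was possible because there was a single sample in every group. Of 103 recomputed values of 23 results, 97 stayed within the 95% interval of a share or within 1.5 times the value given, and 0 ratios changed sides of 1. These limits are wide, and shares near 100% could hardly leave them, so this count is a weak check. With the upper 50% of each list by score, 91.7% of MES Mel18 peaks overlapped ESC Mel18 and 100% of ESC Mel18 peaks overlapped MES Mel18. With peaks within 1 kb joined, 90.0% of MES Mel18 peaks overlapped ESC Mel18 and 90.0% overlapped all 3 other subunits, since narrow satellite peaks merged into the main blocks. The RYBP share of MES-only Mel18 bases was 3.23% with the upper 50% of each list and 3.03% with lists of equal length, both of which remove low-scoring RYBP peaks. The length ratio of MES over ESC Mel18 ran from 1.33 to 1.42 over the 6 windows. It ran from 1.42 to 1.54 for the mesodermal and from 1.19 to 1.33 for the neural members, under other list rules, wider windows or the other class for Pax2, Pax3 and Pax7. The alternatives for shares of bases, the list rules for the tissue classes, the edges over merged regions and the values without the 6 MES Mel18 peaks off ESC Mel18 were chosen after seeing the data. Depth was unknown for every list, and its part in the lengths and counts was not tested.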
